A study of Homo sapiens with 8 samples.

Results

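The expression of 45 interferon-stimulated genes and nucleic acid sensors was examined in Rh41 cells after knockdown of G9a. Rh41 is an established human line derived from alveolar rhabdomyosarcoma, which is a tumour of muscle lineage, and every library carries its PAX3-FOXO1 fusion. The labels give 4 control libraries (CTR) and 4 knockdown libraries (siG9a), numbered 1 to 4 in each group. The series title writes shG9a, and the labels do not settle which kind of RNA reagent was used, what the control cells received, or whether replicates came from separate cultures. The p-values below therefore measure the spread between these libraries, which may be technical. Members were taken by gene symbol from the 60234 genes of the deposited table, and all 45 were found.

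G9a, the product of EHMT2, is a histone methyltransferase that places mono- and dimethyl marks on lysine 9 of histone H3 and takes part in gene silencing. Cells sense double-stranded RNA through RIG-I-like receptors, which signal through the adaptor MAVS to induce interferons. Secreted interferons act through JAK kinases and STAT factors, and the complex of STAT factors with IRF9 binds the interferon-stimulated response element (ISRE) in the promoters of antiviral genes. Loss of methylation at lysine 9 can release transcripts of repeats that cells take for viral RNA, a process called viral mimicry, and the comparison asks whether the genes of this response change with the knockdown.

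Levels are in CPM, the reads of a gene scaled to a fixed total per library. QuantSeq libraries read transcript ends, so a level is not scaled by gene length. The libraries held 1458825 to 1938665 reads, and 1 read was worth 0.516 to 0.685 CPM. EHMT2 was at 57.6, 68.1, 87.3 and 88.3 CPM in CTR 1 to 4 and at 19.6, 35.1, 33.1 and 58.5 CPM in siG9a 1 to 4. It was lower in 4 of 4 numbered pairs, although siG9a 4 lay above CTR 1. The change was −1.10 on the log2(CPM + 1) scale (limma, adjusted p = 0.191 without a block and adjusted p = 0.000472 with the replicate number as a block). By the exact permutation test, two-sided, p was 0.0571, and 0.0286 is the smallest that 4 against 4 libraries allow.

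The libraries of number 3 stood apart in both groups. Their MYOD1, a defining transcription factor of the muscle lineage, was at 95.3 and 128 CPM against 608 to 864 CPM in the other 6 libraries. The summed level of the 9 muscle and rhabdomyosarcoma markers was 405 to 2986 CPM in CTR and 330.0 to 1902 CPM in siG9a, lower in siG9a in 4 of 4 pairs; 5 of the 9 fell with the block, and 4 without number 3 (FGFR4 was lost, adjusted p = 0.0512, limma). Markers of leukocytes summed to 3.12 to 10.4 CPM in CTR and 7.74 to 24.7 CPM in siG9a over 7 genes, higher in 4 of 4 pairs. In pair 1 the sums were 7.54 and 7.74 CPM, a margin under the value of 1 read. CD74 held 14 of the 40 reads in CTR and 59 of the 112 in siG9a. Of the 7 genes, CD74 rose with the block (2.23 ± 1.65 to 8.37 ± 4.23 CPM, SD, n = 4 each, adjusted p = 0.0196, limma, and 0.0664 without number 3), PTPRC was at or below 1.37 CPM in every library, and CD3E was at 0 in siG9a. The 7 fibroblast markers summed to 118 to 407 CPM in CTR and 52.0 to 320 CPM in siG9a, and the 5 epithelial markers to 10.3 to 75.6 and 23.5 to 44.0 CPM, with LUM and THY1 at 0 in siG9a. With the block, COL1A1 and CDH1 fell (adjusted p = 0.041 and 0.0171, limma); without number 3, COL1A1 was lost (0.382) and KRT19 was called higher (0.0182). The mitochondrial share of reads was 4.59% to 9.18% in CTR and 5.21% to 13.7% in siG9a, and it was higher in siG9a in 4 of 4 pairs. The part of these differences in the changes of the interferon genes was not tested, and in bulk RNA fewer expressing cells and less RNA per cell cannot be told apart. Beside each named gene whose call with the block changes without number 3, that value is given.

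More members were higher than lower after the knockdown. SP110, SP100 and DTX3L rose with the block both with and without number 3. No member listed as a double-stranded RNA sensor or adaptor was called. Of the 45 members, 35 had a mean of at least 1 CPM and were tested with all 15092 such genes. Without the block, limma called none of the 35 and 0% of all genes, with 8 members at an unadjusted p under 0.05, all higher, where 6.08% of all genes were higher and 6.38% lower at that threshold. Without the block, edgeR called 0 members and 0% of all genes, and DESeq2 called SP110 and DTX3L, both higher, against 0.851% of the genes to which it gave an adjusted p. With the replicate number as a block, 5 members rose and none fell: SP110, SP100, DTX3L, IFITM3 and ZC3HAV1. This is 14.3% of those tested, against 4.86% of all genes called higher, 6.52% called lower and 11.4% called in either direction. Without number 3 in both groups the block fit called 3 members higher (SP110, DTX3L and SP100) against 2.56% of all genes. The fit without the block then called 1, SP110, against 0.782% of all genes.

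Counts that need no model were also taken. In 6 of the tested members, every siG9a library lay above every control library: SP110, SP100, DTX3L, IFIT1, IFIT3 and ISG15. The same held for IFIT2, which was under the level for testing. The 6 are 17.1% of the 35, against 3.88% of all genes, and none lay wholly below, against 3.45%. ISG15 is among the 6 by a margin under the value of 1 read (CTR 4 at 25.96 and siG9a 3 at 26.26 CPM). For IFIT3 the nearest libraries were CTR 1 at 2.74 and siG9a 3 at 3.43 CPM. A further count, higher in 4 of 4 numbered pairs, held for 13 members (37.1%) against 14.9% of all genes, and no member was lower in 4 of 4, against 15.3%. The log2 change was above 0 for 28 members and below 0 for 7, with a median of 0.49, where all genes tested had a median of 0.015. Of the 35, IFIT1, OAS3 and RSAD2 had a control mean under 1 CPM and passed the filter through siG9a. IFIT1 is among the 6 and the 13, and RSAD2 is among the 13, so both shares rest partly on such members. IFIT1 is also among the 8 at an unadjusted p under 0.05 (limma without the block). IFIT1, OAS3 and RSAD2 are all among the 28 above 0. At a mean of at least 5 CPM the members' median was 0.41. The median change of the tested members was 0.86, 0.46, 0.35 and 0.42 in pairs 1 to 4. The 45 members together summed to 581, 634, 558 and 659 CPM in CTR 1 to 4 and to 899, 819.5, 739 and 763 CPM in siG9a 1 to 4.

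**Figure D1:**
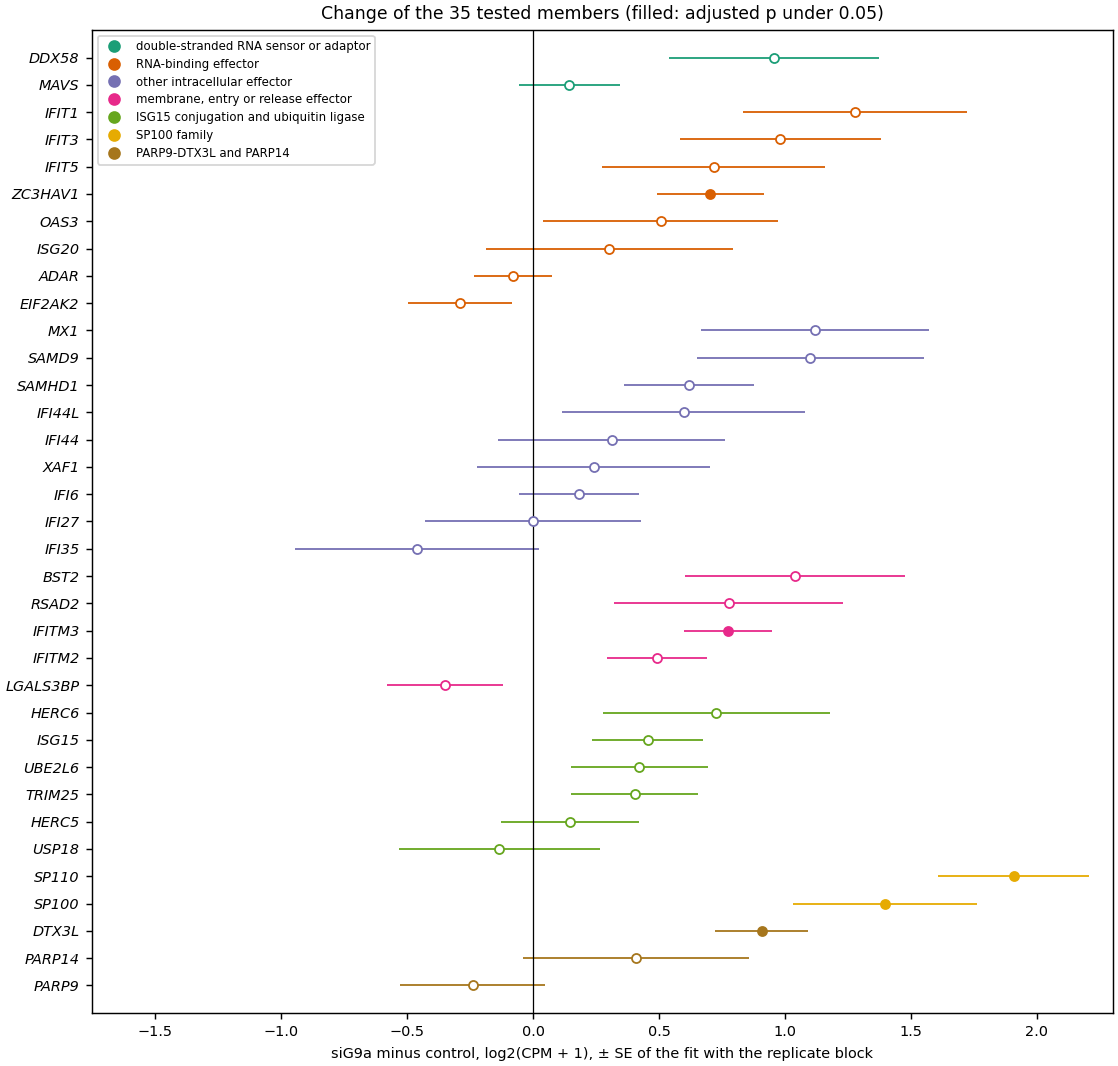
Change of the 35 tested members between siG9a and control, on the log2(CPM + 1) scale, with the SE of the limma fit that takes the replicate number as a block. Points are coloured by role and filled where the adjusted p was under 0.05; the 5 filled points all lie above 0, from 0.70 for ZC3HAV1 to 1.91 for SP110.

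SP110 and SP100 encode nuclear body proteins. SP100 is a defining component of PML nuclear bodies and restricts DNA viruses, and SP110 is a related interferon-induced nuclear protein. SP110 was at 6.17, 4.25, 4.30 and 10.4 CPM in CTR 1 to 4 and at 37.7, 16.3, 25.1 and 24.7 CPM in siG9a 1 to 4. The lowest siG9a library lay above the highest control library. The siG9a level was 6.10, 3.84, 5.84 and 2.38 times that of the control with the same number, and the reads summed to 43 in CTR and 187 in siG9a. The log2 change was 1.91 (SE 0.30, adjusted p = 0.00015 with the block; SE 0.36, adjusted p = 0.0916 without it, limma), and it was called in all 13 settings with the block. Without number 3 it was 1.78 (adjusted p = 0.00369 with the block and 0.0254 without it).

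SP100 was at 2.74, 2.43, 3.07 and 3.12 CPM in the controls and at 11.9, 7.26, 8.56 and 9.18 CPM in siG9a. Again no siG9a library reached down to the controls, and the ratios by number ran from 2.79 to 4.33. The log2 change was 1.40 (SE 0.37, adjusted p = 0.0139 with the block and 0.131 without it, limma). It rests on 19 reads in CTR and 66 in siG9a, and the call was lost in 4 of the 13 settings with the block, among them DESeq2 (adjusted p = 0.0766) and the fits without pair 1 or pair 2. The family's other members on the list of pathway genes did not pass the test: SP140L was at 16.3 CPM in CTR and 24.1 CPM in siG9a on average (adjusted p = 0.253 with the block), and SP140 stayed at or below 1.37 CPM in every library. SP140 overlaps SP110 on the opposite strand in GENCODE release 29, and the sources do not say if reads were counted by strand. SP100, IFITM3, ZC3HAV1 and ISG15 also overlap other annotated genes there, so reads of neighbours cannot be told apart with certainty.

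The promoter windows of both genes are shown because they had the largest log2(CPM + 1) changes among the members and hold none of the motifs searched. Windows run from 250 bases before to 50 bases after the gene start, 5′ to 3′ on the gene's strand, from RefSeq on GRCh38.p14. SP110 is at chr2:230225587-230225886 on the minus strand and SP100 at chr2:230415951-230416250 on the plus strand. No letters are in capitals, since neither window holds the ISRE core searched for (GAAA, any 2 bases, GAAA) or the STAT dimer site TTCNNNGAA (GAS) on either strand. The SP110 window does hold GAAA copies parted by a single base, a spacing that was not searched.
SP110: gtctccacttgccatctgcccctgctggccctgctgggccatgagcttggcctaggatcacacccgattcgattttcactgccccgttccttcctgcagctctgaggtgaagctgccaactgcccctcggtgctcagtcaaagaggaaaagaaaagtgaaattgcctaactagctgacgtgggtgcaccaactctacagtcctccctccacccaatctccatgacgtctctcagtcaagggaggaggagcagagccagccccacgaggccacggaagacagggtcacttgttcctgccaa
SP100: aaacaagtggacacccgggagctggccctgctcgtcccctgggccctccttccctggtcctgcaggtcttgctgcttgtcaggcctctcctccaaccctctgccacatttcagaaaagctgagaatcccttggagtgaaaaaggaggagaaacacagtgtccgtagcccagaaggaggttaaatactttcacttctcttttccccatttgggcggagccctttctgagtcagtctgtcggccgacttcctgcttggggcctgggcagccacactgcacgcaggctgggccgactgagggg

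**Figure D2:**
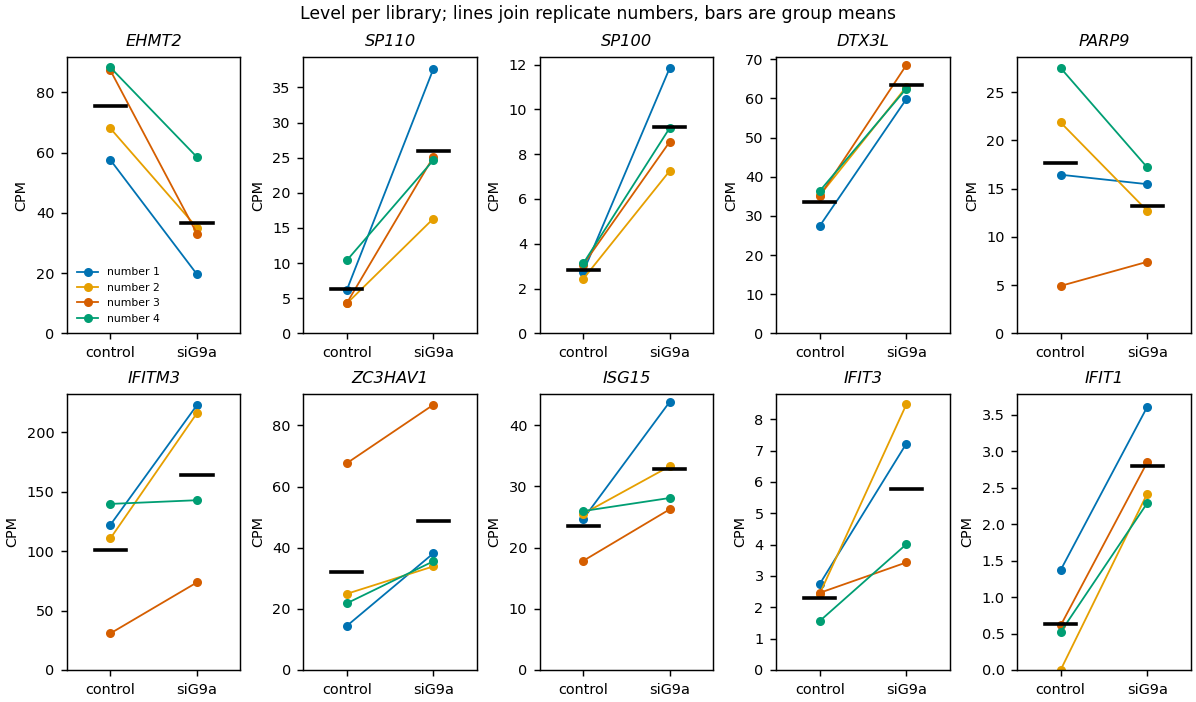
CPM of EHMT2 and 9 members in each library, control at left and siG9a at right, with lines joining libraries of the same replicate number and black bars at the group means. SP110, SP100, DTX3L, ISG15, IFIT3 and IFIT1 show no overlap between groups, whereas PARP9 was higher in 1 of 4 pairs.

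DTX3L and PARP9 encode partners of a single complex, in which the ubiquitin ligase DTX3L binds the ADP-ribosyltransferase PARP9; PARP14 is a further interferon-induced family member. DTX3L was at 27.4, 35.2, 35.1 and 36.4 CPM in the controls and at 59.8, 63.0, 68.5 and 62.5 CPM in siG9a. The 4 siG9a libraries were close to each other and all far above the controls, with ratios of 1.72 to 2.18 by number. The log2 change was 0.91 (SE 0.18, adjusted p = 0.00185 with the block and 0.122 without it, limma), called in all 13 settings with the block and, without it, by DESeq2 (adjusted p = 0.00677). PARP9 was at 16.5, 21.9, 4.92 and 27.5 CPM in the controls and at 15.5, 12.7, 7.42 and 17.2 CPM in siG9a. These groups overlapped, and PARP9 was lower in pairs 1, 2 and 4 and higher in pair 3 (log2 change −0.24, SE 0.29, adjusted p = 0.662 with the block; the sign turned without CTR 4). PARP14 averaged 1.37 CPM in CTR and 2.19 CPM in siG9a and did not pass the test.

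The difference between DTX3L and PARP9, on the log2(CPM + 1) scale, was chosen for a test after the values were seen. It was 1.09 in CTR and 2.24 in siG9a on average and larger in 4 of 4 pairs. The exact permutation test of the groups gave a two-sided p of 0.114, and an exact permutation of signs over the 4 pairs gave p = 0.125, the smallest that 4 pairs allow, so that neither passed the threshold. The genes lie head to head, with RefSeq starts 446 bases apart on opposite strands, and overlap in GENCODE release 29. The windows, shown because DTX3L was called and its partner was not, are chr3:122564088-122564387 on the plus strand for DTX3L and chr3:122564735-122565034 on the minus strand for PARP9. Capitals mark the ISRE core of DTX3L, which begins 6 bases before the start, and PARP9 holds no match.
DTX3L: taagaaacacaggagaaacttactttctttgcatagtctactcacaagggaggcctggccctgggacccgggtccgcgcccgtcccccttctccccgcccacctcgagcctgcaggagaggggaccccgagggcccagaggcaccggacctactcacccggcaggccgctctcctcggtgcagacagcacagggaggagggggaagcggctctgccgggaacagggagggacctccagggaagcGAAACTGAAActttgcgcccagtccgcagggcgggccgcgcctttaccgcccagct
PARP9: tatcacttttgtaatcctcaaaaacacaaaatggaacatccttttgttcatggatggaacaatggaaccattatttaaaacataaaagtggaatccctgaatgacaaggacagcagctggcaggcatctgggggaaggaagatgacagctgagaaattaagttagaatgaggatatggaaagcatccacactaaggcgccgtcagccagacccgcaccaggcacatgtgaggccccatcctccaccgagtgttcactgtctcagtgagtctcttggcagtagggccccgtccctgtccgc

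The 5 members listed as double-stranded RNA sensors or their adaptor gave no call. DDX58, which encodes the cytoplasmic RNA helicase RIG-I, was at 2.74, 1.82, 1.23 and 1.56 CPM in the controls and at 7.74, 5.45, 4.57 and 1.72 CPM in siG9a. It was higher in 4 of 4 pairs, with siG9a 4 inside the control range (log2 change 0.96, SE 0.42, adjusted p = 0.147 with the block, limma). MAVS, the adaptor on mitochondria, was at 36.3, 50.4, 26.4 and 38.9 CPM in the controls and at 41.3, 39.3, 38.3 and 45.9 CPM in siG9a. Its groups overlapped fully and its change was 0.14 (SE 0.20, adjusted p = 0.715 with the block), with a sign that turned under some settings. IFIH1 (MDA5), DHX58 (LGP2) and TLR3, the remaining genes of this list, had at most 3 reads in any library and were under the mean of 1 CPM set for testing. With no filter their adjusted p was 0.647 or higher with the block (limma).

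Among the 12 RNA-binding effectors, 8 were tested and 1 rose with the block. That gene, ZC3HAV1, encodes the zinc finger antiviral protein ZAP, which binds CpG-rich RNA and recruits decay factors. It was at 14.4, 24.9, 67.6 and 21.8 CPM in the controls and at 38.2, 33.9, 86.8 and 35.6 CPM in siG9a. The libraries of number 3 were highest in both groups, so the groups overlapped, while each pair was higher in siG9a by 1.28 to 2.65 times. The change was 0.70 (SE 0.21, adjusted p = 0.0315 with the block and 0.552 without it, limma), and the call was lost when any pair was left out (adjusted p = 0.0723 without number 3).

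IFIT1 and IFIT3 encode tetratricopeptide proteins that bind viral RNA ends and each other. IFIT1 was at 1.37, 0, 0.61 and 0.52 CPM in the controls and at 3.61, 2.42, 2.85 and 2.29 CPM in siG9a. The groups did not overlap, but the counts were only 4 and 20 reads, a ratio of pooled CPM of 4.70 with an exact 95% counting interval from 1.57 to 18.9. The change was 1.28 (SE 0.44, adjusted p = 0.0633 with the block, limma). IFIT3 was at 2.74, 2.43, 2.46 and 1.56 CPM in the controls and at 7.22, 8.47, 3.43 and 4.01 CPM in siG9a, also without overlap (log2 change 0.98, SE 0.40, adjusted p = 0.117 with the block). LIPA overlaps both genes on the opposite strand.

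ADAR and EIF2AK2 act on or respond to double-stranded RNA, ADAR by converting adenosine to inosine and EIF2AK2 as the kinase PKR, which halts translation. ADAR, the most abundant of the RNA-binding effectors tested, was at 98.7, 112, 136 and 107 CPM in the controls and at 86.7, 93.2, 131 and 122 CPM in siG9a, with overlapping groups (log2 change −0.08, SE 0.16, adjusted p = 0.807 with the block, limma; the sign turned when CTR 3 or siG9a 1 was left out). EIF2AK2 averaged 40.0 CPM in CTR and 32.6 CPM in siG9a (adjusted p = 0.407 with the block). IFIT5, OAS3 and ISG20 averaged 0.610 to 4.45 CPM and did not pass the test.

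Of the 6 effectors at membranes, entry or release, 5 were tested and IFITM3 rose with the block. IFITM proteins sit in plasma and endosomal membranes and hinder fusion of enveloped viruses. IFITM3, the most abundant of all tested members, was at 122, 111, 30.8 and 139.7 CPM in the controls and at 223, 216, 73.7 and 143 CPM in siG9a. It was higher in 4 of 4 pairs, by 1.02 times in pair 4 and by 1.83 to 2.40 times in the others, and the groups overlapped through the low libraries of number 3. The change was 0.77 (SE 0.17, adjusted p = 0.00468 with the block and 0.534 without it, limma), and the call was lost without pair 2 or without number 3 (0.62, adjusted p = 0.0674).

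IFITM2 was at 32.9, 46.8, 30.1 and 56.1 CPM in the controls and at 76.3, 59.9, 37.1 and 61.4 CPM in siG9a. It was also higher in 4 of 4 pairs, with overlapping groups (0.49, SE 0.20, adjusted p = 0.115 with the block, limma). The IFITM genes are near copies: 15.7% of the 75-base stretches in the last 500 bases of IFITM3, 11.0% of those of IFITM2 and 72.8% of those of IFITM1 occur in another gene, so reads could be lost or shared between them. BST2 (tetherin), which holds budding virions at the cell surface, averaged 1.36 CPM in CTR and 4.35 CPM in siG9a (adjusted p = 0.129 with the block). RSAD2 (viperin) averaged 0.625 and 1.68 CPM, and the secreted glycoprotein LGALS3BP averaged 35.0 and 26.5 CPM, and neither passed the test.

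The promoters of the effectors called with the block are shown for their contrast in motifs. IFITM3 is at chr11:320811-321110 and ZC3HAV1 at chr7:139109671-139109970, both on the minus strand. Capitals mark a pair of ISRE cores in IFITM3, which begin 52 and 35 bases before the start, and a GAS in ZC3HAV1, which begins 104 bases before the start. The IFIT1 window, chr10:89392373-89392672 on the plus strand, is added as a textbook interferon target whose groups did not overlap; its capitals mark ISRE cores on the other strand (TTTC, any 2 bases, TTTC), 116 and 103 bases before the start.
IFITM3: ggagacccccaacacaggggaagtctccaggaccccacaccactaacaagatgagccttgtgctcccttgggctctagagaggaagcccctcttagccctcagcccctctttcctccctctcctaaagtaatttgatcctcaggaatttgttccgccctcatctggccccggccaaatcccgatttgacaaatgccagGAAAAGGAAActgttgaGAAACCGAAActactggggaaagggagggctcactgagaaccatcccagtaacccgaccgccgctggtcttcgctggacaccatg
ZC3HAV1: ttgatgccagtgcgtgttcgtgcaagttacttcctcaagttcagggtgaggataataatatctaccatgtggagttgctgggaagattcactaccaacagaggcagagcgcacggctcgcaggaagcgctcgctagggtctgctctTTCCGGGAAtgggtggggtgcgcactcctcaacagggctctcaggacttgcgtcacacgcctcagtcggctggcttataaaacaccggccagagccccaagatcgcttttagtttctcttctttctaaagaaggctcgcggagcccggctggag
IFIT1: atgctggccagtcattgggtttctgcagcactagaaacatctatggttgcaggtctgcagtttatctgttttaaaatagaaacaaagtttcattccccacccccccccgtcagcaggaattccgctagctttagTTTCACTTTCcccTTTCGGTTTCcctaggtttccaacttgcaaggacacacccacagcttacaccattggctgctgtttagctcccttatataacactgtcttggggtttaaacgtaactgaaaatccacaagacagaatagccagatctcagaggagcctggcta

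None of the 9 tested members among the 11 other intracellular effectors was called. SAMHD1, which depletes deoxynucleotides, was at 4.80, 14.6, 40.0 and 11.9 CPM in the controls and at 6.19, 27.8, 49.1 and 24.7 CPM in siG9a. It was higher in 4 of 4 pairs, with wide overlap between groups (0.62, SE 0.26, adjusted p = 0.127 with the block, limma). IFI6, a small mitochondrial and endoplasmic reticulum protein, was at 28.1, 17.6, 15.4 and 19.7 CPM in the controls and at 25.8, 24.2, 16.6 and 24.7 CPM in siG9a, again with overlap (0.18, SE 0.24, adjusted p = 0.693 with the block). MX1, a dynamin-like GTPase that blocks influenza virus, averaged 1.20 and 3.23 CPM and SAMD9 1.69 and 4.34 CPM, each at an unadjusted p under 0.05 without the block and at an adjusted p of 0.113 and 0.118 with it. IFI27, IFI35, IFI44, IFI44L and XAF1 averaged 1.22 to 4.50 CPM in either group and did not pass the test, with log2 changes from −0.46 for IFI35 to 0.60 for IFI44L.

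All 6 genes of ISG15 conjugation and its ubiquitin ligases were tested and none was called. ISG15, a ubiquitin-like protein attached to other proteins after interferon, was at 24.7, 25.5, 17.8 and 26.0 CPM in the controls and at 43.8, 33.3, 26.3 and 28.1 CPM in siG9a. The groups did not overlap, by a narrow margin between CTR 4 and siG9a 3, and the change was 0.45 (SE 0.22, adjusted p = 0.193 with the block, limma). TRIM25, the ligase that activates RIG-I, was at 29.5, 18.8, 10.5 and 14.5 CPM in the controls and at 26.8, 36.9, 11.4 and 24.1 CPM in siG9a, with overlapping groups (0.40, SE 0.25, adjusted p = 0.341 with the block). UBE2L6, the conjugating enzyme, averaged 14.6 and 20.6 CPM, and the ligase HERC5 15.3 and 17.4 CPM. HERC6 averaged 2.29 and 5.04 CPM, and USP18, which removes ISG15, averaged 4.79 and 5.48 CPM.

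The 10 members under a mean of 1 CPM were IFIH1, DHX58, TLR3, IFIT2, IFITM1, MX2, OAS1, OAS2, OASL and TRIM22. No library held more than 3 reads of any of them. Together they had 4, 3, 6 and 1 reads in CTR 1 to 4 and 12, 8, 11 and 9 reads in siG9a 1 to 4, so every siG9a library held more than any control library. No such sums were taken over other genes at this level. Over all genes, 3118 had reads in siG9a only and 2525 in CTR only. With reads in every library of that group, they were 24 and 32. IFIT2, a partner of IFIT1 and IFIT3, had 1, 0, 0 and 1 reads in CTR 1 to 4 and 2, 3, 2 and 3 reads in siG9a 1 to 4 (0 to 0.69 CPM and 1.03 to 1.82 CPM), so its groups did not overlap. In the fits with no filter none of the 10 was called; the smallest adjusted p with the block was 0.221, for IFIT2 (limma). A change of single genes was not detectable at this depth.

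**Figure D3:**
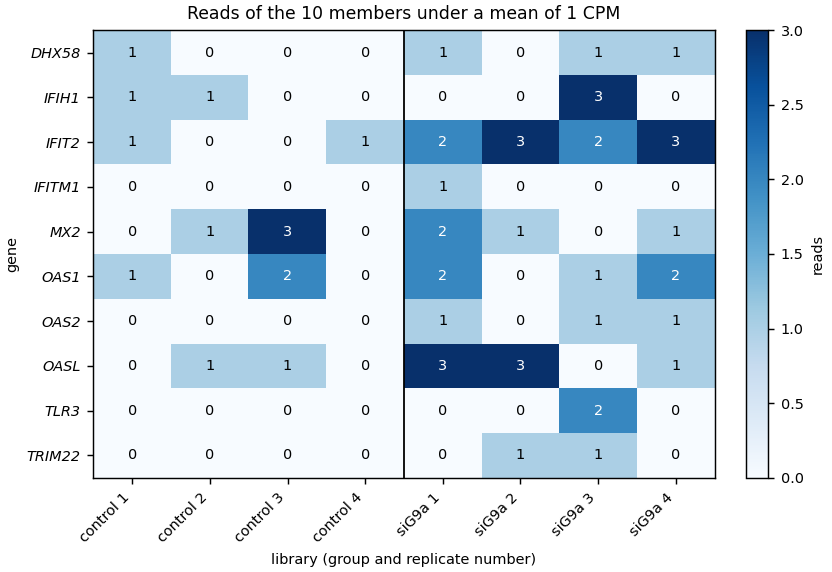
Reads of the 10 members under a mean of 1 CPM in each library, with the numbers of reads in the cells and controls left of the line. Counts run from 0 to 3, and the 4 siG9a libraries hold 40 reads in all against 14 in the controls.

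Promoter windows were found in the RefSeq table for 37 members. The ISRE core was in 22 of them (59.5%), against 996 of 27305 promoters of the same length (3.65%), and the GAS in 8 (21.6%) against 2152 (7.88%). Matches are to the letters alone, on both strands, and some matches of the motifs overlap each other. The median log2 change was 0.51 over the 19 tested members with a core and 0.52 over the 14 without. With the block, 2 of the 19 were called (DTX3L and IFITM3) and 3 of the 14 (SP110, SP100 and ZC3HAV1). Windows in which a single base parts the GAAA copies count as without a core. Among them are RSAD2, DDX58, XAF1, TRIM25, IFI35 and SP110. The split therefore covers the searched spacing only, and a link between other ISRE-like forms and the change was not tested. The median number of CpG sites per window was 12 in the members and 14 in all promoters.

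**Figure D4:**
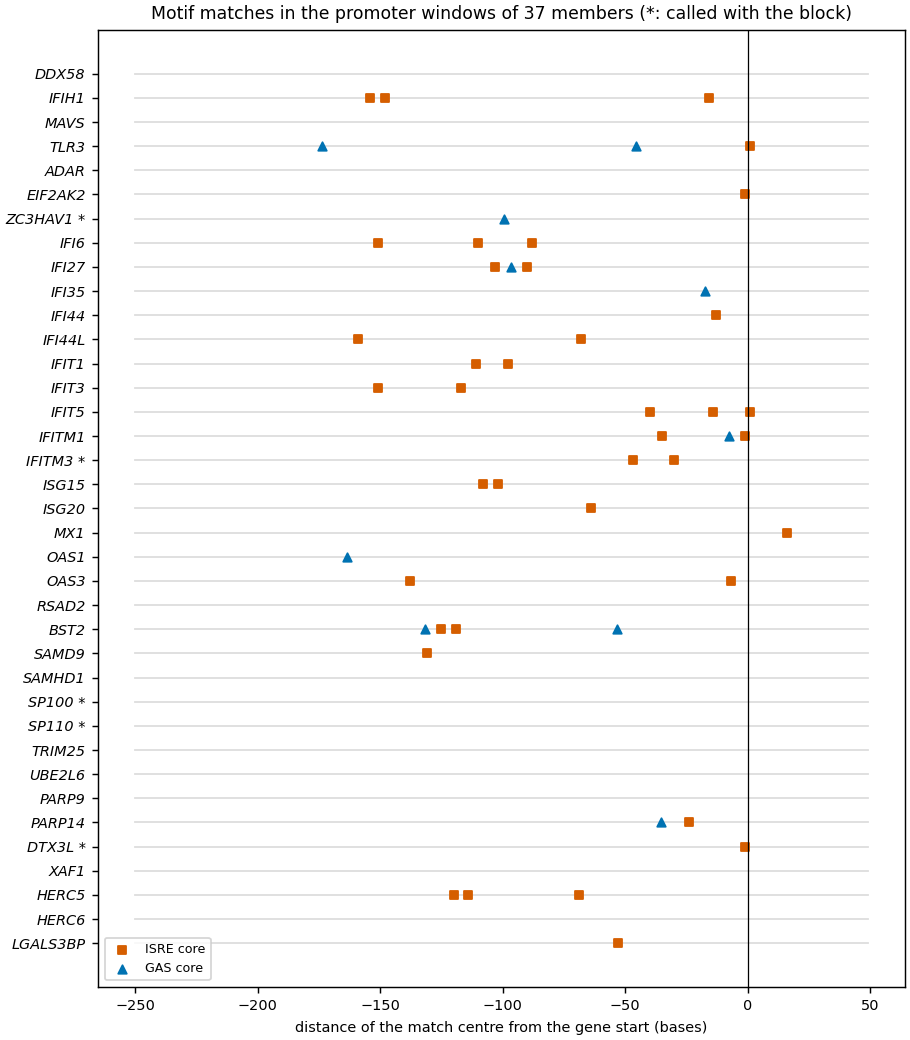
Position of ISRE cores (squares) and GAS matches (triangles) relative to the gene start in the 37 promoter windows found, which are drawn as grey lines, with members called in the block fit marked by an asterisk. Matches lie mostly within 200 bases before the start, and no match is drawn for SP110 or SP100.

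Genes upstream of and parallel to the members were taken from lists of 133 genes reported here, of which 73 were tested. None was called without the block (9 higher and 2 lower at an unadjusted p under 0.05; edgeR 0, DESeq2 3). With the block, 7 rose (9.59%) and 2 fell, where 4.86% of all genes were called higher and 6.52% lower. In either direction 12.3% of the 73 were called, near the 11.4% of all genes. The lists were chosen with earlier results of these data known, so these shares are a description and not a test. The median log2 change of the 73 was 0.22. By list, 2 of 4 tested interferon regulatory factors rose, 0 of 17 genes of sensor signalling and 5 of 22 further interferon-stimulated genes. Of the 15 tested interferon receptor and JAK-STAT genes, 0 were called. Their log2 changes were above 0 for 6 and below 0 for 9, with a median of −0.0079. Of 10 nucleic acid clearance genes 1 fell, and of 4 retroviral envelope-derived genes 1 fell.

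Among the interferon regulatory factors, IRF9 and IRF1 rose. IRF9, the DNA-binding subunit of the complex that reads the ISRE, was at 2.74, 1.22, 1.84 and 4.15 CPM in the controls and at 7.22, 12.1, 13.7 and 6.31 CPM in siG9a (1.64, SE 0.41, adjusted p = 0.00937 with the block, and 0.0786 without number 3, limma). IRF1, a transcription factor induced by interferons, was at 20.6, 12.2, 11.1 and 17.1 CPM in the controls and at 37.7, 42.4, 46.8 and 26.4 CPM in siG9a (1.29, SE 0.25, adjusted p = 0.00139 with the block). Neither gene's groups overlapped. With the block, the IRF9 call was also lost with no filter and without pair 2.

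The 5 further interferon-stimulated genes that rose with the block were HELZ2, GBP1, TAP1, NLRC5 and TRIM56. HELZ2, a helicase-like coactivator, was at 19.9, 22.5, 15.4 and 17.7 CPM in the controls and at 60.4, 69.6, 33.7 and 34.4 CPM in siG9a, without overlap (1.29, SE 0.22, adjusted p = 0.000307 with the block, limma). GBP1, a GTPase of the interferon gamma response, averaged 6.47 and 17.5 CPM (adjusted p = 0.00638). TAP1, the peptide transporter of antigen presentation, averaged 1.51 and 6.13 CPM on 10 and 44 reads (adjusted p = 0.00949). NLRC5, the transactivator of class I HLA genes, averaged 2.12 and 5.38 CPM (adjusted p = 0.0476, and 0.0535 without number 3). The ubiquitin ligase TRIM56 averaged 81.7 and 133 CPM (adjusted p = 0.00695). Among the other settings, NLRC5 was called under quantile normalization with the block only. With the block, TAP1 was not called with no filter, in DESeq2 or without pair 1 or pair 2. TRIM56 also lost its call without pair 1 or pair 2, and GBP1 lost its call without pair 1. Without the block and without number 3, limma called HELZ2 (adjusted p = 0.0223) and TAP1 (0.035).

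**Figure D5:**
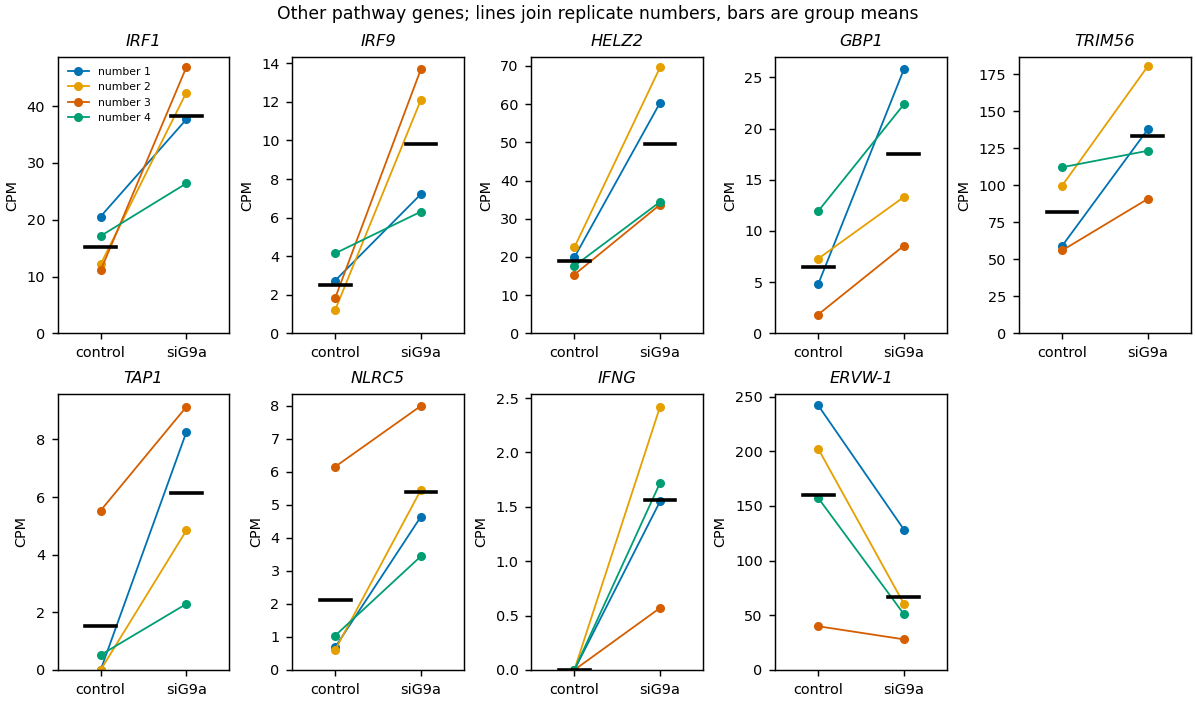
CPM of 9 pathway genes in each library, control at left and siG9a at right, with lines joining libraries of the same replicate number and black bars at the group means. IRF1, IRF9 and HELZ2 show no overlap between groups, IFNG was at 0 in all 4 controls, and ERVW-1 was lower in each pair.

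Interferon genes themselves had almost no reads in these libraries. Of 21 interferon ligands, 20 had 0 reads in every library. The exception, IFNG, which encodes interferon gamma, had 0 reads in all 4 controls and 3, 4, 1 and 3 reads in siG9a 1 to 4; it is named here after its values were seen. Its 11 siG9a reads were 1.55 CPM over the group (exact 95% interval 0.775 to 2.78 CPM). The 1.55 CPM were 3.44 times the 0.451 CPM that 3 reads would give over the control group. That ratio leaves out the counting error of the 11 reads. IFNG was below the level for testing, and in the fit with no filter on low genes limma gave an adjusted p of 0.170, or 0.0521 with the block. Among all genes, 3, IFNG among them, had 0 control reads and at least 11 siG9a reads spread over all 4 libraries, and 8 had the reverse. IFNG-AS1 overlaps IFNG on the opposite strand.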

How the data were processed

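Total RNA of 8 Rh41 libraries was made into QuantSeq 3′ mRNA libraries and sequenced on a NextSeq500 (single-end), per the labels' protocols. The submitters' processing notes name FastQC 0.11.8, Trim Galore, STAR 2.5.0a, HTSeq 0.8.0, edgeR 3.28 and the builds GRCh38 and hg19, with no role or order; the build behind the table and the use of strand are not given in the sources used here. The deposited table holds CPM values of 60234 genes, per the file headers. In every library 100% of the deposited CPM values were whole multiples of 1 read within 0.006 CPM, and the recovered reads summed to the implied totals; intervals cover counting error only. All pairs of replicates differed beyond counting noise (chi-square divided by its degrees of freedom, 5.90 to 28.7), and 8 libraries were kept.

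The 15092 genes whose mean reached 1 CPM were fitted on log2(CPM + 1) with limma 3.58.1 (R 4.3.3), two-sided, with trend and Benjamini-Hochberg adjustment over all of them (threshold 0.05); folds understate changes of low genes. Numbers in the sample titles were taken to pair the libraries, by a rule applied to these same data. Deviations from group means correlated at 0.500, 0.104, 0.673 and 0.130 for numbers 1 to 4, each above the 0.1 required. A second fit took the number as a block. For numbers 2 and 4 unmatched libraries correlated about as well or better (CTR 2 with siG9a 4 at 0.144, CTR 4 with siG9a 2 at 0.091). The pairing is therefore clear for numbers 1 and 3 only. On the recovered reads, edgeR 4.0.16 called 0 genes without and 1711 with the block; DESeq2 1.42.0 was a further alternative. Other alternatives were pseudocounts of 0.1 and 5, filters, scalings, array weights and left-out libraries. Scripts were tested on simulated data. Members and lists were chosen with earlier results of these data known. Per-library values are given for members that were called or did not overlap and for the 2 most abundant of each role, and pathway genes are named where called; 1 gene of the pathway lists is not reported here and is in no count over those lists. Promoters came from RefSeq (GRCh38.p14), overlaps and shared sequence from GENCODE release 29.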

Additional observations from a re-analysis of the deposited data

Results flagged for a closer look

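In 7 of 92 groups of 4 libraries examined, where chance flags about 1 in 20, a single library lay far from the other 3 of its group; 5 of the 7 were libraries of number 3. ZC3HAV1 was at 86.8 CPM in siG9a 3, with the others at 33.9 to 38.2 CPM. ISG15 was at 17.8 CPM in CTR 3, below the others at 24.7 to 26.0 CPM. DTX3L was at 27.4 CPM in CTR 1 (others 35.1 to 36.4 CPM), and HERC5 at 11.0 CPM in the same library (others 16.4 to 17.2 CPM). Among the pathway genes, NLRC5 was at 6.15 CPM in CTR 3 (others 0.61 to 1.04 CPM) and TAP1 at 5.53 CPM in CTR 3 (others 0 to 0.52 CPM). EHMT1, which encodes the partner methyltransferase GLP, was at 27.1 CPM in CTR 3 (others 37.7 to 39.5 CPM).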

How the results depend on the processing

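The median log2 change of the tested members stayed above 0 in each setting, from 0.28 (pseudocount 5) to 0.66 (DESeq2 with the replicate block). Members called numbered 0 in the limma fit, 3 with array weights and 2 with DESeq2. With the replicate block they numbered 5 in limma, with either pseudocount, at a mean of at least 5 CPM, under both scalings and in edgeR, and 3 with no filter or in DESeq2. Leaving out libraries gave 0 to 1 without the block and 2 to 4 with it; SP110 was the call without CTR 3. Over all genes, calls rose from 0 to 18 with no filter, 436 with array weights, 292 with DESeq2 and 1717 with the block. With the block they were 1363 and 1710 at pseudocounts of 0.1 and 5, 840 with no filter, 1653 at a mean of at least 5 CPM, 1692 and 1688 under median-ratio and quantile scaling, 1711 in edgeR and 936 in DESeq2. Leaving out libraries gave 0 to 413 genes without the block (300 without CTR 3, 413 without number 3 in both groups, 2 without siG9a 4) and 951, 668, 1078 and 1393 with it, for numbers 1 to 4. Pathway genes called were 5 with array weights and 3 with DESeq2. With the block they were 9, 8 at either pseudocount, 5 with no filter, 7 at a mean of at least 5 CPM, 8 and 10 under the scalings, 9 in edgeR and 6 in DESeq2; leaving out libraries gave 0 to 3 without the block (2 without CTR 3) and 4 to 8 with it. EHMT2 passed the threshold in every setting with the block, at −1.10 (also with either filter), −1.12 and −1.01 (pseudocounts), −1.11 and −1.07 (scalings), −1.09 (edgeR), −1.12 (DESeq2) and −0.96, −1.16, −1.01 and −1.27 without pairs 1 to 4. EHMT2 passed in no setting without the block, array weights and DESeq2 among them. Signs turned for MAVS (−0.026 with array weights, −0.014 without CTR 3, up to 0.29 without 1 other library and 0.31 without number 2 in both groups), ADAR (0.011 without CTR 3, 0.021 without siG9a 1, down to −0.18) and PARP9 (0.034 without CTR 4, down to −0.72). The cause was not tested. Depth limits members under about 1 CPM, where a library holds 0 to 3 reads.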

Other observations

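Of the pathway genes, 2 fell with the replicate block. ERVW-1, the envelope gene of an endogenous retrovirus that encodes syncytin-1, was at 242, 202, 40.0 and 157 CPM in CTR 1 to 4 and at 128, 60.5, 28.0 and 51.0 CPM in siG9a 1 to 4. The change was a fall (−1.18, SE 0.19, adjusted p = 0.000155 with the block and 0.398 without it, limma) and was lower in 4 of 4 pairs, with number 3 lowest in both groups. Without the block and without number 3 the change was −1.41 (adjusted p = 0.0169, limma). Of the 9 retroviral envelope-derived genes listed, 4 were tested, and 3 of the 4 were not called. SKIV2L, the helicase of the cytoplasmic exosome complex that degrades RNA from its 3′ end, was at 42.5, 43.1, 48.6 and 62.3 CPM in the controls and at 28.4, 25.4, 32.0 and 41.9 CPM in siG9a. No siG9a library reached the lowest control, and SKIV2L fell with the block (−0.61, SE 0.19, adjusted p = 0.0375; 0.337 without the block, limma). The call was lost when any pair was left out (adjusted p = 0.109 without number 3), with no filter and in DESeq2, and 1 of the 10 nucleic acid clearance genes was called in all.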
